A study of Mus musculus with 8 samples.

Results

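The PRDM family was examined here through 9 genes, Prdm16, Mecom, Prdm8, Prdm2, Prdm4, Prdm10, Prdm15, Prdm12 and Prdm13, out of 21887 protein-coding genes with a mapped span and a unique symbol. Each locus was the annotated span of the gene (GRCm38) plus 10 kb on either side, and the values are the H3K4me ChIP-seq peaks that overlap it. In ChIP-seq an antibody enriches chromatin with a given mark, and sequencing of its DNA shows where the mark lies. The mark here was methylated lysine 4 of histone H3. The antibody is catalogued against monomethylation, which is found at enhancers and beside promoters. The tissue was whole cortex of E15.5 mouse embryos. The 2 cKO libraries came from embryos with the genotype Emx1Ires-Cre; Prdm16flox/flox, and the 2 WT libraries from Prdm16 flox/flox embryos with no Cre in their label, so floxed Prdm16 alleles are common to both genotypes. Emx1 drives Cre in the progenitors of the dorsal telencephalon, and cells of other origin in a whole cortex lysate, such as interneurons, microglia and vessels, keep Prdm16. The peaks that overlapped the 9 loci numbered 79 of 80519 in cKO replicate 1, 82 of 82683 in cKO replicate 2, 82 of 75314 in WT replicate 1 and 75 of 66476 in WT replicate 2.

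PRDM proteins combine a PR domain, which is related to the SET domain of histone methyltransferases, with zinc fingers that bind DNA, and they act mostly as transcriptional regulators that recruit chromatin enzymes. PRDM16 acts in radial glia, the stem cells from which cortical neurons arise, and is known outside the brain for the control of brown fat identity. MECOM, also named PRDM3 or EVI1, is its closest relative and acts in blood stem cells. PRDM8 acts with the bHLH factor BHLHE22 in cortical projection neurons, PRDM12 in pain-sensing neurons and PRDM13 in the dorsal spinal cord, retina and hypothalamus. PRDM2 (RIZ) binds the retinoblastoma protein, PRDM4 binds the methyltransferase PRMT5, and PRDM10 and PRDM15 are broadly expressed zinc-finger factors.

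Prdm16 and Mecom resemble each other in the DNA at their first annotated start. The RefSeq promoter table for GRCm38.p6 gives 300 bases a start, 250 before it and 50 from it, and holds 12 starts for 8 of the 9 genes. Among 62 pairs of starts from different genes, the longest run of identical bases had a median length of 9, and no other pair exceeded 11. Prdm16 and the first start of Mecom shared a run of 24 bases. The run was present in 2 of all 32851 promoters searched on both strands (0.00609%), those of Prdm16 and Mecom. It lies downstream of each start, at positions 10 to 33 of Prdm16 and 27 to 50 of Mecom, counted from 1 at the start. At Mecom the run ends with the last base given for that start, so 24 bases is its minimum length. The 30 bases that end with the run are shown 5′ to 3′, with the run in capitals.
Prdm16 (chr4:154636841-154636870, minus strand): ctctgtGCGCATGTGCGAAGGTGTCCAAAC
Mecom (chr3:30509710-30509739, minus strand): tctaacGCGCATGTGCGAAGGTGTCCAAAC

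The 250 bases before the starts are shown because both starts lay under a peak in every library. The longest run common to them was 10 bases, within the range of the other pairs, and stands in capitals. It ends 24 bases before the Prdm16 start and 4 bases before the Mecom start.
Prdm16 (chr4:154636874-154637123, minus strand): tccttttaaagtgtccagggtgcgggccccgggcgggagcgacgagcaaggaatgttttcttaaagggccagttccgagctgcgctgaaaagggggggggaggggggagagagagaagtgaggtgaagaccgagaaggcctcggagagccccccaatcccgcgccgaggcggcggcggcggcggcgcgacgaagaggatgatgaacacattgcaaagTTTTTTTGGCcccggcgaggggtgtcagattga
Mecom (chr3:30509760-30510009, minus strand): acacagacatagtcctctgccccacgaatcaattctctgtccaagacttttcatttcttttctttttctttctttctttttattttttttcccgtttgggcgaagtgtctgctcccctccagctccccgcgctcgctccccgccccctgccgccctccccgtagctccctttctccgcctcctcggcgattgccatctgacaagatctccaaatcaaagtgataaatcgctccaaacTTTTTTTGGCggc
Both promoters are rich in CpG for their base composition, with an observed over expected ratio of CpG of 0.939 for Prdm16 and 1.02 for Mecom over the 300 bases, where the median of 21263 protein-coding starts was 0.567.

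The libraries differed in how much of the genome was called. Peaks covered 148 and 166 Mb in cKO replicates 1 and 2 and 130 and 114 Mb in WT replicates 1 and 2, and the mean of cKO was 1.29 times that of WT. The lists hold no read counts, so the depth behind this is unknown, and more signal per cell cannot be told apart from more cells of a type in a bulk lysate. The markers of the labelled tissue were covered. The median share of the locus under peaks was 60.4% for 12 cortex genes, none of them at 0, compared with 5.68% over all loci. It was 26.6% for 4 genes of the ventral telencephalon and 21.6% for 3 meningeal genes. It was 8.40% for 3 muscle and liver genes, 7.26% for 3 endothelial genes, 6.86% for 4 HOX genes, 5.70% for 3 microglial genes and 1.66% for 3 erythroid genes.

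Prdm16 was the most covered of the 9 loci. Peaks lay over 50.2 and 53.2% of its locus in cKO replicates 1 and 2 and over 45.1 and 42.1% in WT replicates 1 and 2. Prdm8 followed with 43.8 and 47.3% in cKO and 38.0 and 29.7% in WT. Prdm13 (26.3% ± 3.93, SD, n = 4 libraries), Prdm12 (19.4% ± 1.08), Prdm10 (12.5% ± 1.43) and Prdm2 (11.5% ± 2.1) formed the middle of the order, and Prdm4 (5.09% ± 0.228), Mecom (4.56% ± 1.53) and Prdm15 (3.20% ± 2.07) its lower end. Prdm16 lay above Prdm8 in all 4 libraries, although their means differed by less than the sum of their SDs. Prdm10 and Prdm2, Prdm4 and Mecom, and Mecom and Prdm15 were likewise not separated beyond their spread, and the other neighbours in the order were. The median of the 9 genes was 12.5%, and the mean shares of Prdm4, Mecom and Prdm15 lay under the 5.68% of the median locus.

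**Figure D1:**
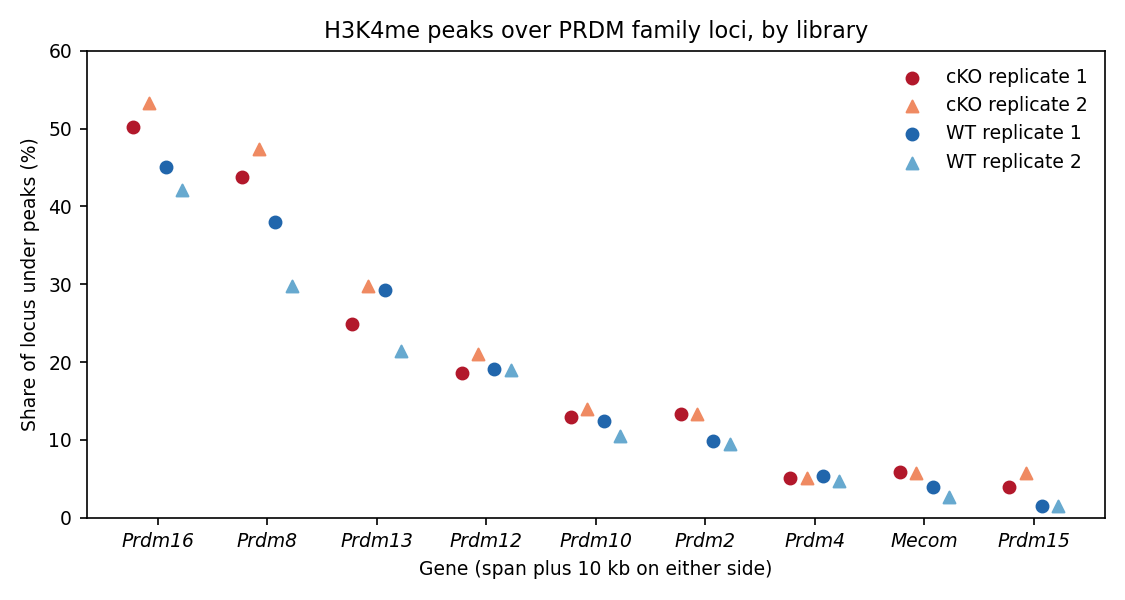
Share of each PRDM family locus under H3K4me peaks (y axis, %) in the 4 libraries, with 1 point per library and genes ordered by their mean. The 2 cKO libraries of Prdm16 sit at 50.2 and 53.2% and the 2 WT libraries at 45.1 and 42.1%, while Prdm4, Mecom and Prdm15 stay under 6% in every library.

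The order did not follow length, and the 2 longest genes stood far apart. Prdm16 (gene ID 70673, chr4:154316122-154637360, 321 kb) ranked 8 among 1134 loci of at least 200 kb by covered share. Mecom (gene ID 14013, chr3:29951296-30509759, 558 kb) ranked 621, below the middle of that group, whose median was 5.61%. The long loci with the covered shares most like those of Prdm16 in all 4 libraries were Bach2, Ttc28 and Med13l, which differed from it by at most 1.31, 2.67 and 2.92 percentage points in any library. This likeness is a description over 4 values.

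In Prdm16 the mark formed its broadest domains towards the start of the gene, and was thin at the far end. These peaks are no check of the deletion, since which exon is floxed is not stated in the labels. Peaks overlapping the locus numbered 21 and 25 in cKO replicates 1 and 2 and 26 and 27 in WT replicates 1 and 2. Covered length ran the other way, at 171 and 182 kb in cKO and 154 and 144 kb in WT, with no overlap between the genotypes. Fewer peaks thus held more bases in cKO. In WT replicate 1, 5 of the 25 gaps between neighbouring peaks were fully bridged by peaks in both cKO libraries, and in WT replicate 2, 7 of 26 were. In the other direction, both WT libraries bridged 1 of 20 gaps of cKO replicate 1 and 0 of 24 of cKO replicate 2. Gap bridging was not counted over the genome, where the cKO lists covered 1.29 times the bases of the WT lists.

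The peaks themselves were among the widest of their lists. The widest at Prdm16 measured 39.0 kb in cKO replicate 1 and 32.2 kb in cKO replicate 2, where they ranked 16 and 33 by width among all peaks. In WT replicates 1 and 2 the widest measured 24.9 kb each and ranked 34 and 29. They were not the same peak. In cKO the widest lay inside the gene, at chr4:154566811-154605842 in replicate 1 and chr4:154574660-154606870 in replicate 2. In WT it spanned the start, at chr4:154617066-154641933 in replicate 1 and chr4:154617092-154641963 in replicate 2. The 24.4 kb over the start that were covered in all 4 libraries (chr4:154617517-154641933) were the longest shared stretch of the locus. Other shared stretches of 20.8 kb (chr4:154496704-154517454) and 19.0 kb (chr4:154539847-154558873) lay inside the gene. The highest fold enrichment of a peak in this locus, the authors' own value over the caller's background, was 6.54 and 6.95 in cKO and 6.49 and 5.56 in WT, within the top 4.39% of each list.

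The gene was divided into 10 equal segments, numbered from the end with the start. Coverage was highest in segment 2 and lowest in the last 2 segments. Segment 2 had 100% and 95.2% under peaks in cKO replicates 1 and 2 and 85.6% and 76.6% in WT replicates 1 and 2. Segment 9 had no peak base in either cKO library, 2.00% in WT replicate 1 and none in WT replicate 2. Segment 10 had 2.44 and 8.02% in cKO and 3.97 and 4.20% in WT, so the genotypes overlapped. Both cKO libraries exceeded both WT libraries in 8 of the 10 segments and lay below them in 0, in libraries that differed the same way over the whole genome. In segment 5, picked after the values were seen, 66.3 and 71.9% was covered in cKO and 52.9 and 53.7% in WT.

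Several long noncoding RNA genes lie in the Prdm16 locus. Gm52688, Gm13133, Gm52689 and 5930403L14Rik were fully covered in all 4 libraries. Gm13110 had 0 and 8.82% of its whole span covered in cKO and 6.51 and 5.27% in WT. Only 731 bases of that span reach into the far upstream flank, and the rest lies outside the locus. Prdm16os, which starts next to Prdm16, had 62.9 and 65.2% of its span under peaks in cKO and 61.0 and 61.4% in WT. Of the 195 kb covered in any library at this locus, 67.3% was covered in all 4, compared with 44.8% over all chromosomes.

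**Figure D2:**
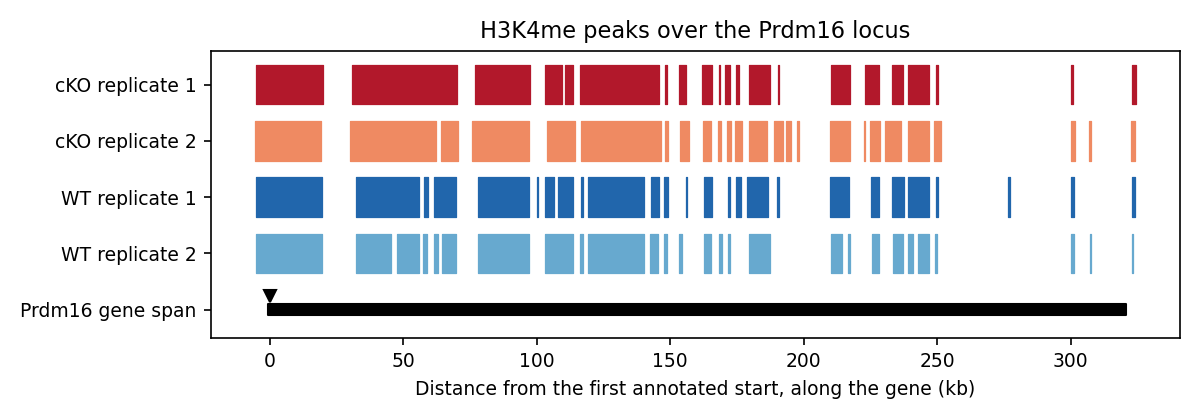
Peaks over the Prdm16 locus in each library (coloured bars, 1 row per library), drawn by distance in kb from the annotated start (triangle) along the gene span (black bar). Blocks are longest towards the start in all rows, segment 7 of the gene is thinly covered (14.4 to 31.95%), the cKO rows have fewer and longer blocks (21 and 25 peaks, against 26 and 27 in WT), and the last 2 segments of the gene hold little (at most 8.02%).

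Mecom carried small, separate peaks over its much longer span. Peaks numbered 25 and 24 in cKO replicates 1 and 2 and 19 and 14 in WT replicates 1 and 2. They covered 34.0 and 33.1 kb of the 578 kb locus in cKO and 22.9 and 15.4 kb in WT, with no overlap between the genotypes. The mean of cKO was 1.75 times that of WT, compared with 1.29 for the genome. The widest peak reached 5.21 and 4.69 kb in cKO and 4.77 and 3.70 kb in WT. No peak of Mecom was among the widest 1% of its list.

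The longest stretches that all libraries shared at Mecom included those over both of its starts. The longest (chr3:30506227-30509926, 3.70 kb) covered the first start, from which the long MDS1-EVI1 form is made. The third longest (chr3:30011884-30013410, 1.53 kb) covered the second start, from which the shorter EVI1 form is made. The second longest, of 1.98 kb (chr3:30219082-30221065), lay between the starts and covered neither. Both cKO libraries exceeded both WT libraries in 7 of the 10 segments of the gene and lay below them in 0. The libraries differed the same way elsewhere, with both cKO above at 59.8% of all fitted loci and below at 1.22%. In segment 2, picked after the values were seen for its wide gap, 13.0 and 11.4% was covered in cKO and 6.21 and 2.72% in WT. In segment 10 the genotypes overlapped, with 3.73 and 2.63% in cKO and 3.67 and 3.25% in WT. Of the bases covered in any library, 19.0% were covered in both cKO and neither WT library at Mecom, 7.04% at Prdm16 and 7.04% over all chromosomes. This share was 36.6% at Prdm15, 15.2% at Prdm8 and 12.3% at Prdm2. It was at most 4.46% at Prdm4, Prdm10, Prdm12 and Prdm13.

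**Figure D3:**
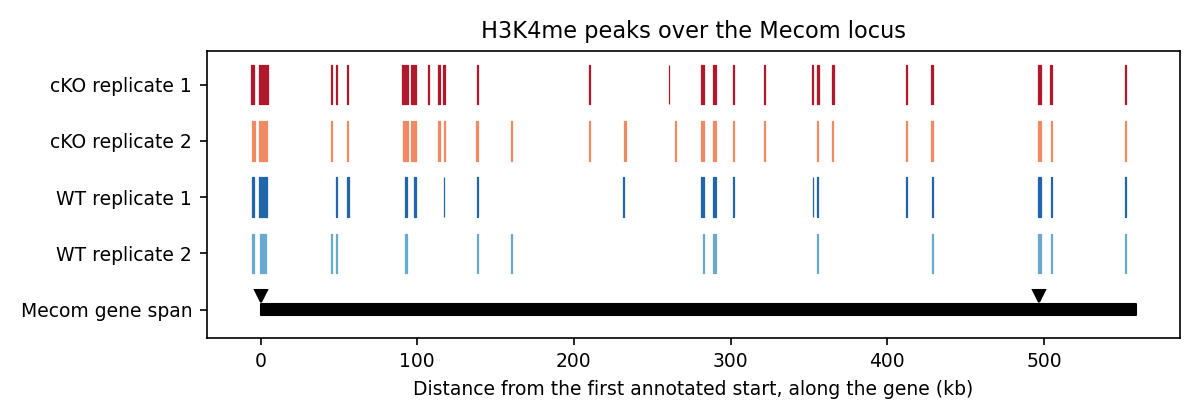
Peaks over the Mecom locus in each library (coloured bars, 1 row per library), drawn by distance in kb from the first annotated start along the gene span (black bar), with both starts as triangles. The cKO rows hold 25 and 24 short peaks and the WT rows 19 and 14, and each row has a peak at each start.

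Most starts of the family were marked, and the shape around them differed from gene to gene. Of the 12 starts in the promoter table, 6 lay under a peak in all 4 libraries and 2 in none, compared with 21.1% and 51.5% of 21263 starts of protein-coding genes. The 2 starts of Prdm4 overlap in sequence and lie under the same peak, and Prdm2 has no entry. The 6 were those of Prdm16 and Prdm12, both of Mecom and both of Prdm4. At Prdm16 and Prdm12 the 2 kb on either side were fully covered in every library. At the first start of Mecom the mark was one-sided, with all of the 2 kb downstream covered in each library and 694 and 653 bases upstream in cKO and 677 and 167 bases in WT.

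At Prdm10 and Prdm15 the start sat in a gap between flanking peaks. The first start of Prdm10 was 461 and 562 bases from the nearest peak base in cKO and 526 and 525 bases in WT. The first start of Prdm15 was 382 bases away in cKO replicate 1, under a peak in cKO replicate 2, and 452 and 376 bases away in WT. The peak over it in cKO replicate 2 was a single one of 4.62 kb, where each other library had 2 separate peaks. Prdm8 also differed between libraries. The 2 kb downstream of its start were fully covered in both cKO libraries, against 646 and 402 bases in WT replicates 1 and 2. This start lay under a peak in both cKO libraries and in WT replicate 2, and 92 bases from one in WT replicate 1. It is the only Prdm8 start in the promoter table and lies inside the gene span (chr5:98180869). The upstream end of that span was covered in every library.

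The promoters of Prdm15 and Prdm13 are shown because both have a start that was under a peak in some libraries and not in others, and they differ in base composition. CG dinucleotides stand in capitals, 15 in the 250 bases before the first Prdm15 start and 7 in those before the Prdm13 start.
Prdm15 (chr16:97851851-97852100, minus strand): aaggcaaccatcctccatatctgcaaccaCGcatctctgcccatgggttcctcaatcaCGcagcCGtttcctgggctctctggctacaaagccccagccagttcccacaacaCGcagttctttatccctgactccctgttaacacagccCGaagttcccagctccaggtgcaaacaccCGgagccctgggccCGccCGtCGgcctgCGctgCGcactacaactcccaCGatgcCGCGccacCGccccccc
Prdm13 (chr4:21685964-21686213, minus strand): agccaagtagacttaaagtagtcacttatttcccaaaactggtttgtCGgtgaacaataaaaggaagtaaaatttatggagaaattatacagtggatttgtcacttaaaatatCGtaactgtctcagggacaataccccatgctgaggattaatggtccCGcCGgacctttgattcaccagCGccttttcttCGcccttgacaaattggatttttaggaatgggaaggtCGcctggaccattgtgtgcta
The Prdm13 start lay under a peak in cKO replicate 2 and in both WT libraries, and 46 bases from one in cKO replicate 1. Over the 300 bases of each start the CpG ratio ranged from 0.424 at the second start of Prdm10 to 1.02 at the first of Mecom. Starts with a high ratio were found both under peaks in all libraries (Prdm4, 0.896 and 0.962) and in a gap in most of them (Prdm15, 0.825 and 0.827).

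**Figure D4:**
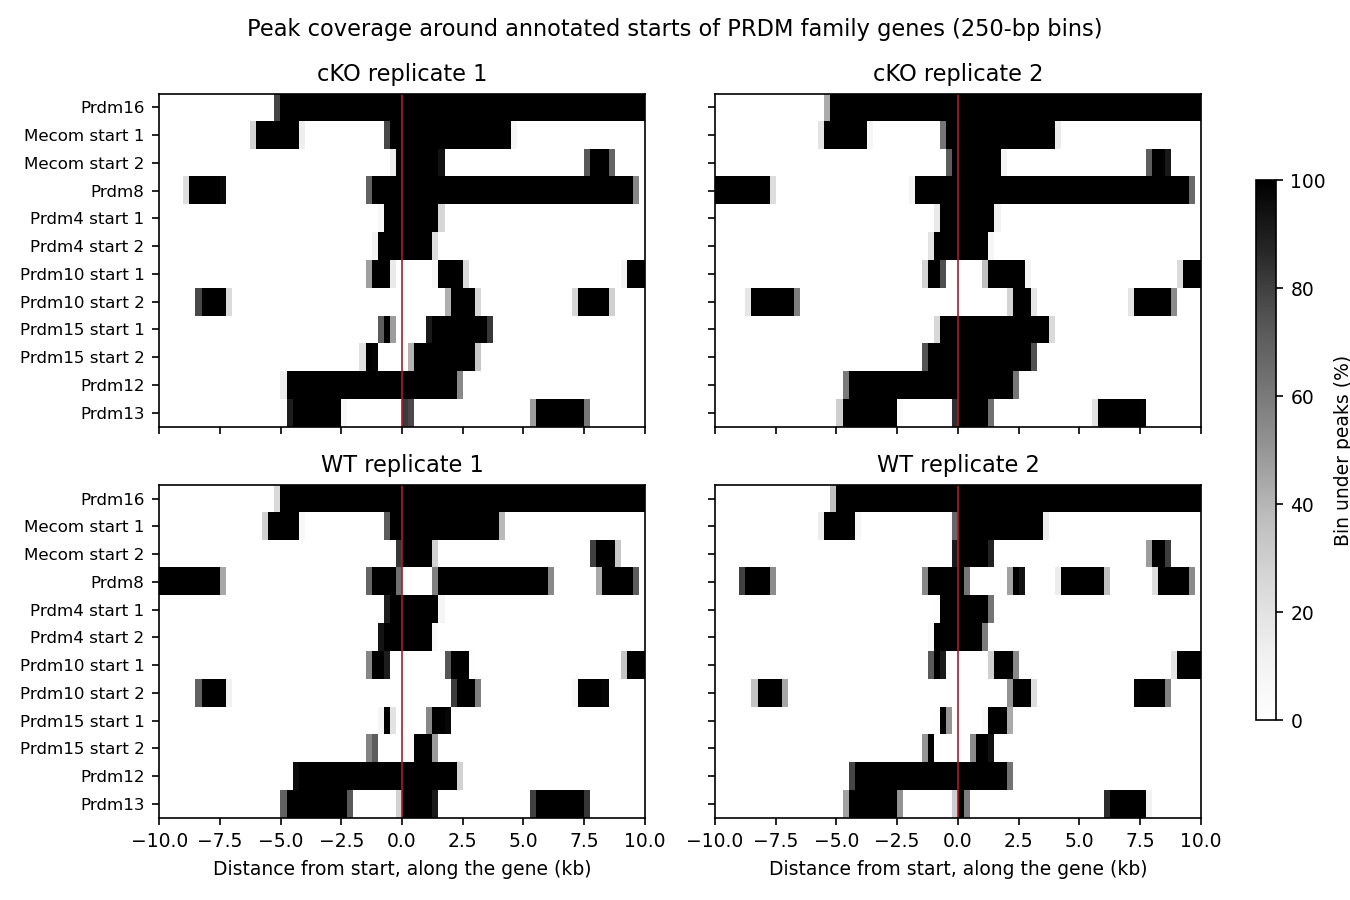
Peak coverage within 10 kb of the 12 annotated starts of 8 PRDM family genes, in bins of 250 bases, with 1 panel per library (cKO in the upper row, WT in the lower row). The x axis is the distance from the start along the gene in kb, the red line marks the start and darker bins have more of their bases under peaks. Prdm16 and Prdm12 are covered throughout around the start in all panels, Prdm10 has a gap there in all panels, and Prdm8 is filled downstream of the start in cKO but broken in WT.

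The smaller loci gave the following values. Prdm8 (chr5:98167203-98187454) had 17.6 and 19.0 kb under peaks in cKO and 15.3 and 11.97 kb in WT, in 3 and 2 peaks in cKO and 4 and 6 in WT. As at Prdm16, covered length was greater in both cKO libraries while peaks were fewer. The longest stretch common to all libraries at Prdm8, 4.76 kb (chr5:98165821-98170579), lay over the upstream end of the gene span, and the noncoding A730035I17Rik in the gene was fully covered except in WT replicate 2, with 48.4%. Prdm2 (chr4:143107391-143212769) had 16.8 and 16.7 kb in cKO and 12.4 and 11.96 kb in WT, and its longest common stretch, 2.26 kb (chr4:143211103-143213365), lay at the upper end of the gene span.

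Prdm12 and Prdm13, whose known sites of action lie outside the cortex, were covered in every library. Prdm12 (chr2:31635026-31655795) had 7.56 and 8.56 kb in cKO and 7.82 and 7.74 kb in WT, most of it in a single peak of 6.60 to 7.17 kb around the start. The 2 genotypes overlapped. Prdm13 (chr4:21675865-21685963) had 6 peaks in each library, which covered 7.48 and 8.95 kb in cKO and 8.81 and 6.45 kb in WT, also with overlap.

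Prdm4, Prdm10 and Prdm15 have protein-coding neighbours inside their loci. Prdm4 (chr10:85891964-85917152, beside Pwp1) was marked at its start and hardly elsewhere, with 2.33 and 2.32 kb in cKO and 2.40 and 2.16 kb in WT. Its 2.13 kb common to all libraries made up 84.9% of the bases covered in any, the highest such share of the 9 genes. Prdm10 (chr9:31276110-31381731, beside Gm7244 and Nfrkb) had 16.2 and 17.5 kb in cKO and 15.6 and 13.3 kb in WT, in 12 or 13 small peaks per library. Its peak of highest fold enrichment in cKO replicate 2 (7.68) lay over the beginning of the Nfrkb span. Prdm15 (chr16:97791467-97851875, beside C2cd2) had 3.23 and 4.62 kb in cKO and 1.20 and 1.25 kb in WT. Both cKO values of Prdm15 thus exceeded both WT values, as at 59.8% of all fitted loci. The mean of cKO was 3.21 times that of WT, compared with 1.29 for the genome. The ratio rests on little covered length in WT. The 4.62 kb of cKO replicate 2 were 1 peak, where each other library had 2.

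None of the 9 loci differed between cKO and WT by the test over all loci. limma on log2(covered bases + 500), after centring each library on its median locus, called 0 of 9 genes at an adjusted p under 0.05, and 0 of 14941 loci higher (0%) and 0 lower (0%). All 9 genes passed the minimum of 1000 covered bases on average. At an unadjusted p under 0.05, 2 of the 9 were higher in cKO and none lower, compared with 830 loci higher (5.56%) and 663 lower (4.44%). These were Prdm15, at a log2 difference of 0.96 ± 0.28 (limma adjusted p = 0.454), and Mecom, at 0.43 ± 0.14 (limma adjusted p = 0.474), each with its SE over 2 cKO and 2 WT libraries. Without WT replicate 2, the library with the fewest peaks, the difference of Mecom was 0.26.

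Prdm16 itself stood at −0.14 ± 0.066 (limma adjusted p = 0.518), below the median locus, although more of it was covered in cKO. Its covered length in cKO was 1.19 times that in WT, short of the 1.29 of the genome. The sign turned to 0.25 without centring and 0.16 with lists of equal covered length. Prdm12 (−0.34 ± 0.16), Prdm4 (−0.36 ± 0.27), Prdm13 (−0.27 ± 0.16) and Prdm10 (−0.16 ± 0.12) were negative too, with adjusted p between 0.518 and 0.650 by limma. Their covered length in cKO was 1.04, 1.02, 1.08 and 1.17 times that in WT, and without centring these 4 differences were positive. Prdm2 (0.058 ± 0.14, ratio 1.37) and Prdm8 (0.039 ± 0.12, ratio 1.34) lay near the median locus, with adjusted p of 0.891 and 0.919 by limma, and their sign was not stable across settings.

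In covered bases, both cKO libraries lay above both WT libraries at 6 of the 9 genes and below them at 0, compared with 59.8% and 1.22% of all fitted loci. After centring, both cKO libraries lay above at 2 genes (17.3% of all loci) and below at 5 (27.2%). The median log2 difference was −0.14 over the 9 genes and −0.04 over all loci. The 12 cortex marker loci had a median of −0.27, with 12 of 12 negative and none called. Over all fitted loci, 6720 of 14941 were positive. The summed covered share of the 12 was 50.9 and 54.5% in cKO and 50.6 and 46.6% in WT. Their mean shares ranged from 21.4 to 91.5%, and the fullest of them had little room to gain covered bases. The part of these marker loci in the values of Prdm16 was not tested.

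**Figure D5:**
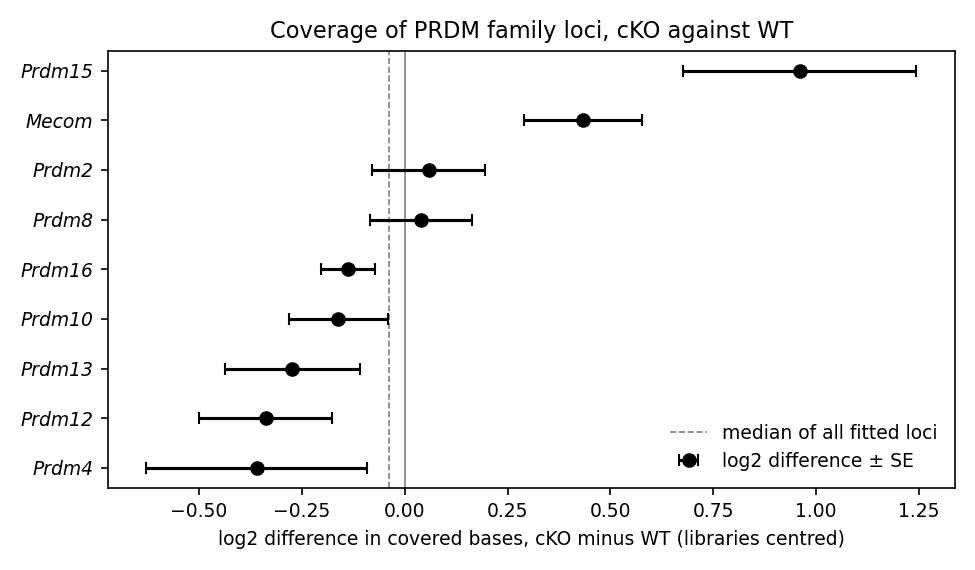
Difference in covered bases between cKO and WT at each PRDM family locus, on the log2(bases + 500) scale after centring (x axis), with 1 point per gene and bars of 1 SE from limma (2 libraries per genotype). Prdm15 (0.96) and Mecom (0.43) lie to the right, the other genes lie between −0.36 and 0.058, and none passed the threshold; without centring Prdm16, Prdm4, Prdm10, Prdm12 and Prdm13 turn positive.

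Regions found in 1 genotype alone were few. Here, cKO-only means 200 bp or more under peaks in both cKO libraries with no peak base in either WT library, and WT-only the reverse. The 9 loci held 7 cKO-only and 0 WT-only regions. The cKO-only regions made up 9.09% of the 77 intervals covered in both cKO libraries there, compared with 7.73% over the genome. The 0 WT-only regions were out of 71 intervals covered in both WT libraries, compared with 0.949% over the genome (581 of 61195). The limits on these counts are that requiring 500 bp left 3 cKO-only regions, and that lists of equal covered length gave 0 cKO-only and 3 WT-only regions.

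Mecom held 4 of the 7, all inside the gene, at chr3:30144179-30144708, chr3:30188070-30188536, chr3:30299607-30300239 and chr3:30394978-30396158. The last was the longest at 1181 bp. Their peaks were weak, with fold enrichments of 2.57 to 3.93 and −log10 q of 1.79 to 3.97, as the authors' caller gave them. Prdm2 held 1 inside the gene (chr4:143183070-143183496, 427 bp) and 1 beyond its upper end (chr4:143219417-143219755, 339 bp). The only one at Prdm16 (chr4:154413725-154414006, 282 bp) belonged to a peak of 5.50 kb in cKO replicate 1 and of 371 bp in cKO replicate 2. The 5.50-kb peak also ran over a peak of each WT library. Those peaks lay 2074 and 2446 bases from the region in WT replicates 1 and 2.

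A list of 7 further genes was covered at lower shares than Prdm16 and Prdm8. It held Prdm1, Prdm6, Prdm9, Prdm11 and Prdm14 with the related FOG genes Zfpm1 and Zfpm2, and its mean shares ranged from 5.18% for Prdm9 to 20.1% for Zfpm1. limma called 0 of 7 in either direction (adjusted p between 0.540 and 0.992), with 4 positive and 3 negative differences and a median of 0.0043. Prdm11 had 20.8 and 19.6 kb under peaks in cKO and 16.8 and 13.5 kb in WT, and Zfpm2 34.0 and 35.5 kb in cKO and 25.1 and 23.8 kb in WT. Prdm1, the regulator of plasma cells and of the early germline, had 9.999 and 13.2 kb in cKO and 10.4 and 7.81 kb in WT. Prdm6 had 13.4 and 14.3 kb in cKO and 12.5 and 12.7 kb in WT, and Zfpm1 15.1 and 19.8 kb in cKO and 14.4 and 11.9 kb in WT.

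Among 20 genes for known partners of PRDM proteins, 17 passed the coverage minimum and limma called 0 higher and 0 lower, with 7 positive and 10 negative differences and a median of −0.09. Ski, Ctbp2 and Bhlhe22 are named for their coverage, after it was seen. The locus with the highest mean share was that of Ski, a corepressor that binds SMAD proteins (42.1% ± 6.53, SD, n = 4 libraries). Ctbp2, a corepressor bound by PRDM16 and MECOM, had 39.1% ± 4.98 covered, and Bhlhe22, the partner of PRDM8, 30.1% ± 4.91. The 3 largest absolute differences were those of Rcor1 (0.75 ± 0.25, SE; limma adjusted p = 0.474), a scaffold of the CoREST complex, of Hdac1 (0.60 ± 0.33; adjusted p = 0.554), a histone deacetylase, and of Rb1 (0.42 ± 0.17; adjusted p = 0.485), the retinoblastoma gene. Hdac1 had 9.33 and 8.47 kb under peaks in cKO and 6.91 and 2.54 kb in WT. Cebpb and Gfi1b held no peak in any library, which does not show that the mark is absent.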

How the data were processed

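H3K4me ChIP-seq was deposited for 2 cKO and 2 WT libraries from native chromatin cut with micrococcal nuclease, per the labels' protocols; the 4 inputs were not analysed here. Per the submitters' processing notes, the tools were MACS2 2.1.1, Bowtie2 2.2.8, cutadapt and FastQC, on mm10. Calling options were not given in these sources. The authors deposited 1 broad peak list per library, with a score, a fold enrichment (a ratio over the caller's background) and −log10 p and −log10 q values. The deposited score is 10 times −log10 q cut to a whole number in over 99.99% of peaks. Depth is unknown. Calls depend on depth and on the yield of the precipitation.

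Autosomal and sex-chromosome peaks were used, which left out 1 peak of each cKO list, and covered bases were counted per locus (Python 3.11.15, numpy 2.4.6, pandas 2.3.3). limma 3.58.1 in R 4.3.3 (eBayes with trend) compared 2 cKO with 2 WT libraries over 14941 loci with at least 1000 covered bases on average, with a pseudocount of 500, median centring, no block, Benjamini-Hochberg adjustment over all loci and a threshold of 0.05. The pseudocount understates changes of thinly covered loci. An exact permutation test of 2 against 2 cannot give p below 0.333, so none is used. The code was tested on simulated data. Nothing says whether replicates were separate embryos, so p-values measure the spread between these libraries. Names, spans and promoters came from RefSeq tables on GRCm38.p6, with no exons. Named were all 9 genes, other PRDM loci with at least 10 kb covered on average, the 3 partners of largest difference, the 3 long loci most like Prdm16 and all genotype-specific regions. The genes and lists were chosen with earlier results of these data known. An entry of the list of other PRDM genes is not reported here. Alternatives covered peak thresholds, list sizes, flanks, pseudocounts, filters, scaling, a replicate block and single libraries left out.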

Additional observations from a re-analysis of the deposited data

How the results depend on the processing

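No alternative called any of the 9 genes, and every alternative but 1 called 0 loci in all; the exception was the fit without WT replicate 1, with 124 calls among all loci (119 higher, 5 lower), so leaving out 1 library gave 0 to 124. Mecom and Prdm15 stayed positive in all 15 alternatives, from 0.26 to 0.82 and from 0.57 to 1.41 on the log2 scale. Without centring the difference was 0.25 for Prdm16, 0.024 for Prdm4, 0.22 for Prdm10, 0.046 for Prdm12 and 0.11 for Prdm13, because the cKO lists cover more. With equal covered length it was 0.16 for Prdm16 and 0.083 for Prdm10. Prdm8 turned to −0.0064 with stricter peaks (−log10 q of at least 2) and to −0.028 without WT replicate 2, and ranged from −0.028 to 0.11 with 1 library left out. Prdm2 turned to −0.022 without WT replicate 1 and −0.033 without cKO replicate 1, and ranged from −0.033 to 0.15 with 1 library left out. The cause was not tested beyond this. The count of 7 cKO-only regions became 3 with a minimum of 500 bp and 0 with equal covered length, and 8 to 15 with 1 library left out (15 without WT replicate 1, 11 without cKO replicate 1). The 0 WT-only regions became 1 with equal numbers of peaks, 3 with equal covered length and 0 to 3 with 1 library left out (3 without WT replicate 2). With the replicate block 0 loci were called; deviations of same-numbered libraries had a correlation of −0.096 over loci, and the labels do not say that numbers mark pairs. Unknown depth limits all of these values.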
